A study of Mus musculus with 6 samples.

Results

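The genes described are 10 members of the contractile and pericyte cytoskeleton, chosen by symbol: Acta2, Tagln, Myl9, Mylk, Tpm1, Tpm2, Cald1, Cnn1, Speg and Fscn1. Every probe set whose platform annotation names exactly 1 of these symbols was taken, which gave 30 of the 34945 probe sets with a single gene symbol, and 10 of the 18193 genes these represent. They were measured on 6 Affymetrix arrays of bone marrow cells from 3 Grem1;TdTomato mice on a C57BL/6J background, 6 to 8 weeks old, labelled male and given tamoxifen by mouth. Cells were sorted as Grem1+, with no further gate in the labels, or as Grem1-, meaning non-recombined cells that lack CD45 (a blood cell antigen), CD31 (endothelial) and Ter-119 (erythroid). Both fractions came from each mouse, so the 3 Grem1+ arrays are matched to the 3 Grem1- arrays, and all animals carry the same alleles and received the same drug. The labels do not name the Cre allele. Values are log2 expression per probe set, and a difference is always Grem1+ minus Grem1- on that scale.

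Smooth muscle cells and pericytes, the contractile cells wrapped around blood vessels, pull on actin filaments with myosin. Acta2 encodes the smooth muscle actin of those filaments. Myosin light chain kinase (Mylk) switches myosin on by phosphorylating its regulatory light chain (Myl9), while tropomyosins (Tpm1, Tpm2), caldesmon (Cald1), calponin (Cnn1) and transgelin (Tagln) lie on the actin filament. Serum response factor, together with myocardin and related cofactors, drives many of these genes from promoter elements called CArG boxes. Speg is a kinase of the myosin light chain kinase family found in striated and smooth muscle, and Fscn1 encodes fascin, which ties actin filaments into the stiff bundles of cell protrusions.

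Speg and Fscn1 had the largest differences among the 20 member probe sets tested, at 7.97 (SE 1.04) and 7.64 (SE 0.32), and their order turned with dim values set to log2 4 (6.67 and 7.13). Mylk, Tpm1 and Cald1 were also higher in Grem1+ on at least 1 probe set. The core contractile genes Acta2, Tagln and Myl9 did not pass the test, with differences of 0.37 to 0.75, and Cnn1 lay below log2 4 on all 6 arrays. Of the 30 probe sets, 20 were tested because they were above log2 4 on at least 3 arrays. The limit of 4 is a setting of the test and no detection limit. Of the 20, 9 were higher in Grem1+ and 0 lower (limma with the mouse as a block, Benjamini-Hochberg adjusted p under 0.05 over all 18157 probe sets tested), and 13 and 0 had an unadjusted p under 0.05 in limma. Over all 18157, 6360 had an unadjusted p under 0.05 in limma, in either direction. Of all probe sets tested, 10.1% were higher and 7.76% lower, 17.8% in either direction. The median difference was 1.76 over the 20 and -0.01 over all tested. On 15 of the 20 every Grem1+ array was above every Grem1- array, and on 0 every one was below, which held for 21.6% and 20.4% of all probe sets tested. These counts cover only probe sets that passed the filter. One of them, Fscn1 1416515_at, had no Grem1- array above the limit and so entered only through its Grem1+ values. Among the others that passed the test, Fscn1 1416514_a_at and 1448378_at and Speg 1448664_a_at and 1425968_s_at had 1 Grem1- array above it. These met the filter through their Grem1+ arrays, all 3 of which were above it. The counts and the median over the 20 therefore depend in part on the filter. In a sorted bulk fraction, fewer cells of a type and less RNA per cell cannot be told apart.

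**Figure D1:**
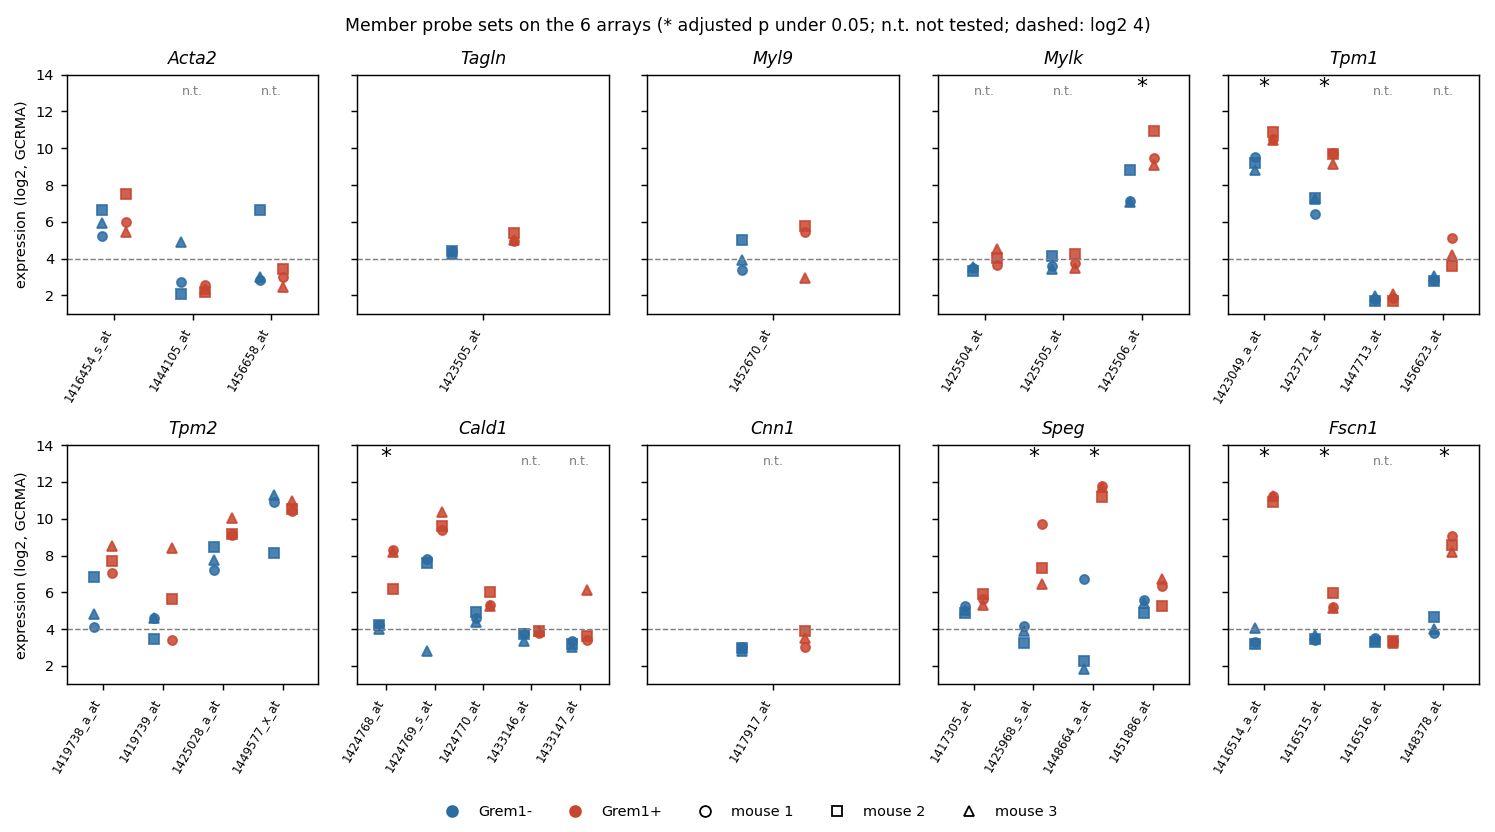
Expression (log2, GCRMA) of the 30 member probe sets on each array, with 1 panel per gene and probe sets along the horizontal axis. Blue symbols are Grem1- and red symbols Grem1+, symbol shape gives the mouse, the dashed line is log2 4, an asterisk marks an adjusted p under 0.05 and n.t. a probe set that was not tested. Red and blue symbols stand far apart for Speg 1448664_a_at and Fscn1 1416514_a_at and mix for Acta2 and Myl9.

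The fractions were checked first. The Grem1 transcript stood at 3.69, 3.75 and 3.70 in Grem1- and at 4.49, 4.14 and 8.61 in Grem1+, a difference of 2.04 that did not pass (limma adjusted p = 0.245) and was 0.60 without mouse 3. Ptprc, which encodes CD45, averaged 12.09 ± 0.30 (SD, n = 3) in Grem1- and 9.15 ± 1.68 in Grem1+ on its brighter probe set. Grem1- was thus high in this transcript, although its gate removes CD45+ cells. That difference, -2.94, did not pass (limma adjusted p = 0.0603). A dimmer Ptprc probe set averaged 8.85 in Grem1- and 3.18 in Grem1+, where all arrays were dim. It was lower, at -5.67 (limma adjusted p = 0.0106). Pecam1, which encodes CD31, averaged 4.80 in Grem1- and 3.30 in Grem1+, where all arrays were dim. Its difference of -1.50 did not pass (limma adjusted p = 0.0638). Summed levels of 8 pan-haematopoietic genes lay at 14.28 to 14.39 in Grem1- and at 11.22 to 12.92 in Grem1+, and those of 13 chondrocyte genes at 11.48 to 11.96 and at 15.02 to 15.18 (log2 of summed linear values). Xist, the RNA that coats the silenced X chromosome, was above log2 7 in both fractions of mouse 3 and below 3 in the other mice, although the labels give all animals as male. Values without mouse 3 are therefore given for the member probe sets that passed, but not for the genes of the other lists. As a sign of RNA quality, the 3' probe set of the Gapdh control exceeded its 5' one by 2.66 ± 0.34 (log2, SD, n = 3) in Grem1- and by 3.58 ± 0.51 in Grem1+. For actin the gap was 0.16 ± 0.02 and 0.09 ± 0.11. The part that RNA quality or blood cell content had in any difference below was not tested.

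Acta2, the actin that defines contractile smooth muscle, was measured by 3 probe sets. On 1416454_s_at the Grem1- arrays of mice 1, 2 and 3 stood at 5.23, 6.63 and 5.94 and the Grem1+ arrays at 5.97, 7.50 and 5.43. The groups overlapped, mouse 2 was the highest in each fraction, and mouse 3 went down where mice 1 and 2 went up. At 0.37 (SE 0.41) the difference missed the threshold (limma adjusted p = 0.585), and without mouse 3 it was 0.81. The _s_ in the name of this probe set marks probes that other transcripts may share. The other two were not tested and were dim on all Grem1+ arrays, at 2.20 to 2.59 for 1444105_at and 2.45 to 3.43 for 1456658_at. Each had a single Grem1- array above log2 4, at 4.89 in mouse 3 and at 6.63 in mouse 2, so no probe set of Acta2 separated the fractions.

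Tagln, which encodes the actin-binding protein transgelin, lay just above the limit with little spread. Its only probe set 1423505_at stood at 4.41, 4.40 and 4.27 in Grem1- and at 4.94, 5.37 and 5.02 in Grem1+. All Grem1+ arrays were above all Grem1- arrays, yet 0.75 (SE 0.29) missed the threshold (limma adjusted p = 0.153). Myl9 1452670_at, for the regulatory light chain, stood at 3.40, 5.03 and 3.93 in Grem1- and at 5.45, 5.78 and 2.96 in Grem1+. The fractions overlapped widely, since mouse 1 differed by 2.05 and mouse 3 by -0.97. The mean over mice, 0.61 (SE 0.66), missed the threshold (limma adjusted p = 0.575). Without mouse 3 it was 1.40 and without mouse 1 it was -0.11. Cnn1 1417917_at, for the calponin of smooth muscle, stood at 3.04, 2.98 and 2.80 in Grem1- and at 3.01, 3.92 and 3.51 in Grem1+, all dim.

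Promoters are shown for 3 members, to show the letters behind the search for CArG boxes. Myl9 holds a box of the strict form, Acta2 holds only a looser form with 1 G or C in the core, and Fscn1 holds neither. The sequences are the 250 bases before the start of the RefSeq gene model, 5′ to 3′ on the gene's strand (build GRCm38.p6), with capitals marking each match of either form. They span chr19:34255374-34255623 on the minus strand for Acta2, chr2:156775214-156775463 on the plus strand for Myl9 and chr5:142960105-142960354 on the plus strand for Fscn1.
Acta2: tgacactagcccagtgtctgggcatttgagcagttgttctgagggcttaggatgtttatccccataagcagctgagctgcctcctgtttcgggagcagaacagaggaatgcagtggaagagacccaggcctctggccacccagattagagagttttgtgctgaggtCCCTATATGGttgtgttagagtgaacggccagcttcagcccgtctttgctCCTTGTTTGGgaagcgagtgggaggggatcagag
Myl9: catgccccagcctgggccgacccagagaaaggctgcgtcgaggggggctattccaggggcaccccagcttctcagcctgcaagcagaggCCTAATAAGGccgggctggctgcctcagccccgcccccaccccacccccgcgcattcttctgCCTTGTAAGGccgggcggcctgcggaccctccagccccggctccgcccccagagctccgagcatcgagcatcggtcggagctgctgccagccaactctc
Fscn1: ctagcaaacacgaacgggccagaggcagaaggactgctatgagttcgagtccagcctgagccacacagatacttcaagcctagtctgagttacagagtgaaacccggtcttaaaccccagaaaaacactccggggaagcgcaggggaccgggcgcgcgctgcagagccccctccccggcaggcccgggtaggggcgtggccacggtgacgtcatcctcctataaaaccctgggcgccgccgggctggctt

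The search read both strands. A CArG box (CC, 6 bases that are each A or T, then GG) was found in Myl9, as CCTAATAAGG at positions -161 to -152 from the start, and in 1.47% of the 32851 promoters of the same length. Allowing exactly 1 G or C among the 6 (so that no box counts as both forms), a form known from smooth muscle genes and searched after the sequences had been seen, added CCTTGTAAGG in Myl9. It also found CCCTATATGG and CCTTGTTTGG in Acta2 and CCTATGTAGG before 1 of the 4 starts of Speg, and it was present in 10.5% of all promoters. No match of either form was found in this window before Mylk, Tpm1, Tpm2, Cnn1 or Fscn1, nor before either start of Cald1. RefSeq promoters were matched for 9 of the 10 members. A match is a run of letters and was not tested as a binding site.

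Among the switches and filament proteins around this core, Mylk rose. Its probe set 1425506_at stood at 7.16, 8.83 and 7.08 in Grem1- and at 9.49, 10.93 and 9.07 in Grem1+. Mouse 2 was the highest in both fractions, and the step within each mouse was nearly the same, at 2.33, 2.10 and 1.99. The difference of 2.14 (SE 0.28), or 4.41-fold, passed (limma adjusted p = 0.0189), but it did not without the replicate block (adjusted p = 0.0660). It was 2.22 without mouse 3. The other Mylk probe sets, 1425504_at and 1425505_at, lay between 3.33 and 4.53 on all arrays and were not tested.

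Tpm1, the tropomyosin found in muscle and in many other cells, rose on both tested probe sets. On 1423049_a_at the arrays stood at 9.53, 9.20 and 8.79 in Grem1- and at 10.52, 10.88 and 10.42 in Grem1+. On 1423721_at they stood at 6.43, 7.32 and 7.24 in Grem1- and at 9.74, 9.71 and 9.13 in Grem1+. The fractions did not overlap on either. The differences were 1.44 (SE 0.31, limma adjusted p = 0.0490) and 2.53 (SE 0.40, limma adjusted p = 0.0256), and 1.34 and 2.85 without mouse 3. The second did not pass when dim probe sets were kept in (adjusted p = 0.0551). The first was near the threshold and lost its call under quantile normalization (adjusted p = 0.0581), when shared probe sets were dropped (0.0502) and when dim probe sets were kept in (0.0623). Probe set 1456623_at stood at 2.80 to 3.08 in Grem1- and at 5.13, 3.59 and 4.19 in Grem1+. Probe set 1447713_at did not exceed 2.06 on any array, and neither of these was tested.

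Tpm2, another tropomyosin with a role in skeletal and smooth muscle, did not pass on any of its 4 tested probe sets. On 1419738_a_at the arrays stood at 4.14, 6.81 and 4.81 in Grem1- and at 7.04, 7.72 and 8.53 in Grem1+, a difference of 2.51 (SE 0.63, limma adjusted p = 0.0658). On 1425028_a_at they stood at 7.21, 8.46 and 7.76 in Grem1- and at 9.10, 9.19 and 10.01 in Grem1+, a difference of 1.62 (SE 0.42, limma adjusted p = 0.0687). These fractions did not overlap, but the mice differed in size of step, and mouse 2 had the smallest. With a stricter filter, log2 above 6 on at least 3 arrays, both passed (adjusted p = 0.0439 and 0.0497), the latter also without the replicate block (0.0419), and the mean of the 4 probe sets, at 1.56 (SE 0.39), passed among gene means (limma adjusted p = 0.0470). On 1419739_at mouse 1 differed by -1.22 and mouse 3 by 3.77. On 1449577_x_at the Grem1- arrays stood at 10.89, 8.13 and 11.28 and the Grem1+ arrays at 10.40, 10.53 and 10.96, a difference of 0.53 (SE 0.70, limma adjusted p = 0.650).

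Striated muscle transcripts varied among the Grem1- arrays. Myh1, a fast skeletal myosin, stood at 8.85, 6.28 and 10.10 in Grem1- and at 2.72, 2.21 and 10.23 in Grem1+, and Tnnt3, a fast troponin, at 6.84, 4.62 and 7.24 and at 7.89, 8.84 and 9.75. Mouse 2 was the lowest in Grem1- and mouse 3 the highest in Grem1+ for both. Within Grem1-, mouse 2 was also the lowest on Tpm2 1449577_x_at and 1419739_at, but it was the highest on 1419738_a_at and 1425028_a_at. Sums over 17 striated muscle genes ran from 8.36 to 10.64 in Grem1- and from 9.55 to 11.48 in Grem1+. Of the 6 that were tested, 1 was higher (Tnni2, a fast troponin, at 3.46, SE 0.61) and 0 were lower, and the median difference was 0.53. Tnni2 lost its call when dim probe sets were kept in (limma adjusted p = 0.0825). The myogenic factors Myod1 and Myog did not exceed 3.43 on any array. The part of muscle RNA in any Tpm2 value was not tested.

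Cald1, which encodes caldesmon, a brake on the myosin motor, gave 3 tested probe sets of unlike steadiness. On 1424768_at the arrays stood at 4.22, 4.23 and 3.99 in Grem1- and at 8.28, 6.17 and 8.22 in Grem1+. The difference of 3.41 (SE 0.57), or 10.6-fold, passed (limma adjusted p = 0.0289), but it did not when dim probe sets were kept in (adjusted p = 0.0742), and it was 3.00 without mouse 3. On 1424769_s_at they stood at 7.81, 7.61 and 2.83 in Grem1- and at 9.39, 9.63 and 10.39 in Grem1+. The Grem1- array of mouse 3 was far below the others, and 3.72 (SE 1.34) missed the threshold (limma adjusted p = 0.136). Without that mouse the difference was 1.80. On 1424770_at the difference was 0.87 (SE 0.29, limma adjusted p = 0.112). The mean of the 3 tested probe sets passed at 2.67 (SE 0.57, limma adjusted p = 0.0320). Of the 2 that were not tested, 1433146_at did not exceed 3.91 on any array, and 1433147_at was above log2 4 only in the Grem1+ array of mouse 3, at 6.15.

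Speg differed by 0.60 to 7.97 depending on the probe set. On 1448664_a_at the Grem1- arrays stood at 6.70, 2.25 and 1.83 and the Grem1+ arrays at 11.78, 11.20 and 11.73. The Grem1+ arrays were tight, and the spread lay in Grem1-, where mouse 1 was above the limit and the others dim. The difference was 7.97 (SE 1.04, limma adjusted p = 0.0187). With a floor at log2 4 it was 6.67, or 102-fold, which is below the 7.13 of Fscn1 1416514_a_at with the same floor, and it was 7.01 without mouse 3, and it did not pass when dim probe sets were kept in (adjusted p = 0.0583). On 1425968_s_at the arrays stood at 4.17, 3.26 and 3.91 in Grem1- and at 9.70, 7.33 and 6.43 in Grem1+. That difference of 4.04 (SE 0.65) passed as well (limma adjusted p = 0.0270), with 4.80 without mouse 3, and lost its call without the filter (adjusted p = 0.0731).

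The remaining Speg probe sets did not pass. On 1417305_at the arrays stood at 5.25, 4.85 and 5.01 in Grem1- and at 5.65, 5.93 and 5.33 in Grem1+, 0.60 apart (SE 0.32, limma adjusted p = 0.271). On 1451886_at the difference was 0.83 (SE 0.33, limma adjusted p = 0.162). The annotation gives the same transcript record for 1417305_at and 1448664_a_at, so these unlike values do not follow the named record. Speg makes several transcripts from separate starts, of which RefSeq lists 4 here, and the probe sets were not placed on them. The mean of the 4 probe sets differed by 3.36 (SE 0.28, limma adjusted p = 0.00514).

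Fscn1 was near or below the limit in Grem1- and high in Grem1+. On 1416514_a_at the arrays stood at 3.28, 3.18 and 4.05 in Grem1- and at 11.25, 10.93 and 11.25 in Grem1+. The steps within mice were 7.97, 7.75 and 7.20, and the difference of 7.64 (SE 0.32) passed (limma adjusted p = 0.00989). With that floor it was 7.13, or 140-fold, and it was 7.86 with mouse 3 left out. On 1448378_at the arrays stood at 3.80, 4.66 and 3.99 in Grem1- and at 9.08, 8.59 and 8.22 in Grem1+, a difference of 4.48 (SE 0.39, limma adjusted p = 0.0107) and 4.61 without mouse 3. Both kept their call under every alternative that used all 3 mice.

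On Fscn1 1416515_at every Grem1- array was dim, at 3.42, 3.48 and 3.68, and the Grem1+ arrays stood at 5.18, 5.94 and 5.14. With dim values set to log2 4, which is no detection limit, the difference was 2.68-fold, against 3.71-fold with the values as deposited. The fit to the values as deposited passed (limma adjusted p = 0.0328), the fit with that floor did not (adjusted p = 0.0521), and the measured difference was 2.11 without mouse 3. Probe set 1416516_at lay at 3.24 to 3.50 on all arrays and was not tested. Mature dendritic cells are known for fascin. Of 9 dendritic cell genes on the array 5 were tested, of which 0 were higher and 1 lower, and the sum ran from 8.29 to 8.94 in Grem1- and from 7.50 to 8.30 in Grem1+. Flt3, Batf3, Ccr7 and Xcr1 did not reach the filter. The part of dendritic cell RNA in the Fscn1 values was not tested.

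**Figure D2:**
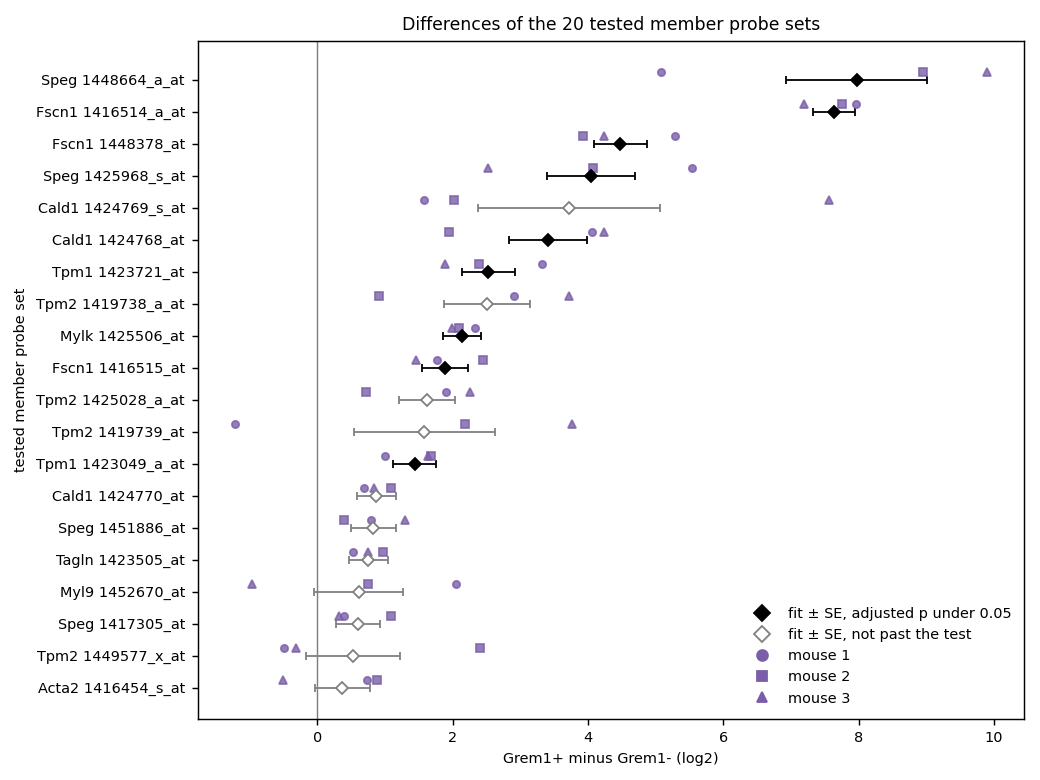
Grem1+ minus Grem1- (log2) for the 20 tested member probe sets, sorted by size. Diamonds with bars give the limma estimate and its SE, black where the adjusted p was under 0.05, and purple symbols give each mouse. Acta2, Myl9 and 2 of the Tpm2 probe sets have a mouse on each side of 0, while the 9 that passed have all 3 mice above 0.

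No adjusted p under 0.05 remained among the 20 when any mouse was left out with the block kept, as for all 18157 probe sets, where the fit has a single residual degree of freedom. Unadjusted p-values under 0.05 then numbered 11, 11 and 9 of 20 in limma without mouse 1, 2 and 3. The counts over all probe sets for these fits are given in the last section. With a mouse left out and no replicate block, 5, 5 and 4 of 20 passed. In that setting 1416514_a_at and 1448378_at of Fscn1 and 1423721_at of Tpm1 passed whichever mouse was left out. In 7 of the 20 the same mouse was highest in both fractions, a share close to the 37.4% over all tested probe sets.

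The rest of the contractile and cytoskeletal machinery was read from 7 lists of 102 genes, of which 63 were tested by their highest probe set. Of these, 13 were higher and 3 lower in Grem1+, beside 11.1% and 7.81% of all 10151 genes, with a median difference of 0.33 against 0.04. Without the replicate block 5 were lower. Among 10 other smooth muscle genes 3 were higher and 0 lower, with a median of 1.52. Tns1, a tensin that joins actin to integrins, went from 5.34 ± 0.93 to 10.24 ± 0.13 (SD, n = 3), a difference of 4.90 (SE 0.46, limma adjusted p = 0.0115). Synm, an intermediate filament protein, passed at 3.65 (SE 0.54, limma adjusted p = 0.0231). It did not pass when dim probe sets were kept in (limma adjusted p = 0.0617). Its other probe set did not pass with the filter in place (limma adjusted p = 0.0765). Nexn, an actin-binding protein, had only dim Grem1- values. It was 3.26-fold higher with dim values set to log2 4, and it did not pass with that floor (limma adjusted p = 0.0701). Myh11, the smooth muscle myosin, stood at 5.23 ± 0.72 and 5.66 ± 0.42 and did not pass. Smtn differed by 2.10 (SE 0.47, limma adjusted p = 0.0523) and Csrp1 by -0.40 (SE 0.35, limma adjusted p = 0.479), and neither passed. Actg2, Des, Lmod1, Pdlim3 and Ppp1r14a did not reach the filter.

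Relatives of the members that are not tied to muscle showed both directions. The calponins split, with Cnn2 lower (difference -2.47, SE 0.32, limma adjusted p = 0.0184) and Cnn3 higher by 2.69 (SE 0.28, limma adjusted p = 0.0132), while Cnn1 was dim. Cnn2 stood at 8.50, 9.02 and 9.98 in Grem1- and at 6.51, 6.28 and 7.29 in Grem1+. Cnn3 stood at 8.33, 7.75 and 8.41 in Grem1- and at 11.08, 10.53 and 10.96 in Grem1+, and 3 of its other probe sets passed in the same direction. Among the actin bundlers Pls3, a plastin of solid tissues, was higher by 2.92 (SE 0.38), and Lcp1, the plastin of blood cells, differed by -1.54 (SE 0.30). Lcp1 lost its call when dim probe sets were kept in (limma adjusted p = 0.0517). Fmn1, a formin that was dim in Grem1-, was 2.58-fold higher with dim values set to log2 4. It did not pass with that floor (limma adjusted p = 0.152).

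By their highest probe sets, the widespread actins, light chains and tropomyosins differed by less than 1 log2 unit. Actb differed by -0.19 (SE 0.27), Actg1 by -0.20 (SE 0.29), Myl12a by 0.16 (SE 0.28) and Myl12b by -0.81 (SE 0.29). Tagln2 differed by -0.64 (SE 0.28), Tpm3 by -0.44 (SE 0.28) and Tpm4 by 0.33 (SE 0.30). None of these 7 passed in limma. Other probe sets of the same genes differed by more, with one of Tpm3 at -1.95 (SE 0.43, limma adjusted p = 0.0502) and one of Myl12a at 1.13 (SE 0.39, limma adjusted p = 0.123). Of 20 non-muscle actomyosin genes, each by its highest probe set, 2 were higher and 2 lower, with a median of -0.25. Myh9, the heavy chain of non-muscle myosin, does not count as lower here, since its highest probe set differed by -0.16 (SE 0.33), but 2 of its other probe sets were lower in limma, at -2.62 (SE 0.35) and -1.82 (SE 0.39). Beside the calponins the genes that passed were Actn4, an actin crosslinker, at 1.47 (SE 0.28), which did not pass with the trended, robust prior (adjusted p = 0.0636), and Flna, filamin A, at -1.98 (SE 0.37). Flna lost its call when dim probe sets were kept in (limma adjusted p = 0.0661).

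**Figure D3:**
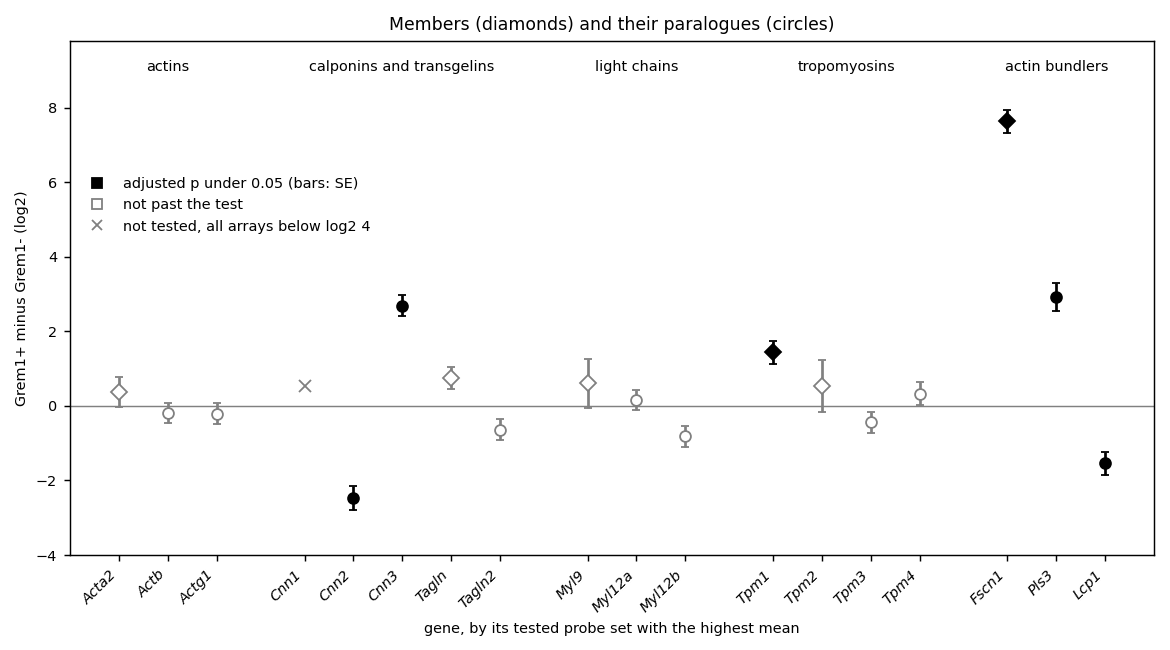
Grem1+ minus Grem1- (log2, limma estimate and SE) for members (diamonds) and their relatives (circles), each by its tested probe set with the highest mean, which for Tpm2 is 1449577_x_at. Filled symbols had an adjusted p under 0.05 and the cross is Cnn1, which was below log2 4 on all arrays. Of the filled symbols, Cnn2 and Lcp1 lie below 0, and Cnn3, Tpm1, Fscn1 and Pls3 above it.

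Of 7 tested genes of serum response factor and its partners, 2 were higher and 0 lower, with a median of 0.88. Srf itself stood at 9.84, 9.86 and 10.03 in Grem1- and at 11.46, 11.22 and 11.51 in Grem1+, a difference of 1.48 (SE 0.28, limma adjusted p = 0.0362). Its other probe set was dim in both fractions. Fhl2, a LIM protein that binds it, differed by 2.72 (SE 0.45) and lost its call when dim probe sets were kept in (limma adjusted p = 0.0653). Of the other partners, Mrtfa differed by -1.28 (SE 0.41) and Fhl1 by 2.49 (SE 0.59), and neither passed (limma adjusted p = 0.109 and 0.0582). Myocd, which encodes myocardin, did not exceed 3.58 on any array.

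Pericyte markers were mostly dim. Of 15 pericyte genes on the array 9 did not reach the filter, among them Mcam, Notch3, Kcnj8 and Vtn. Of the 6 tested, 1 was higher and 0 lower, with a median of 1.36. This was Cspg4, the NG2 proteoglycan, which stood at 4.64, 6.26 and 5.96 in Grem1- and at 11.23, 11.39 and 10.43 in Grem1+, a difference of 5.40 (SE 0.51, limma adjusted p = 0.0117), while its other probe set did not pass (adjusted p = 0.0629). Pdgfrb, the receptor that recruits pericytes, differed by 2.91 (SE 0.64), just short of the threshold (limma adjusted p = 0.0504). It passed under 5 of 10 alternatives that used all 3 mice, where the limma adjusted p ran from 0.0143 (no replicate block) to 0.120. Its other probe set differed by 0.19 (SE 0.30, limma adjusted p = 0.709), with overlapping groups. Rgs5, a signalling regulator rich in pericytes, was at 9.77, 10.05 and 9.31 in Grem1- and at 10.12, 8.16 and 9.18 in Grem1+, which overlapped.

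Other cell types could share members of the set, since platelets carry light chain kinase and tropomyosin. Of 9 megakaryocyte and platelet genes on the array 3 were tested, of which 0 were higher and 2 lower. Their summed level was 8.75 to 9.88 in Grem1- and 7.76 to 8.24 in Grem1+. The part of platelet RNA in the Mylk and tropomyosin values was not tested. Of 7 endothelial genes 3 were tested and 0 passed in limma, with summed levels of 6.63 to 7.78 and 5.94 to 6.32. All 13 chondrocyte genes and 4 of 5 osteoblast genes tested were higher, as were Speg, Fscn1, Mylk, Tpm1 and Cald1 on the probe sets given above. The part of cartilage and bone cells in those differences was not tested.

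**Figure D4:**
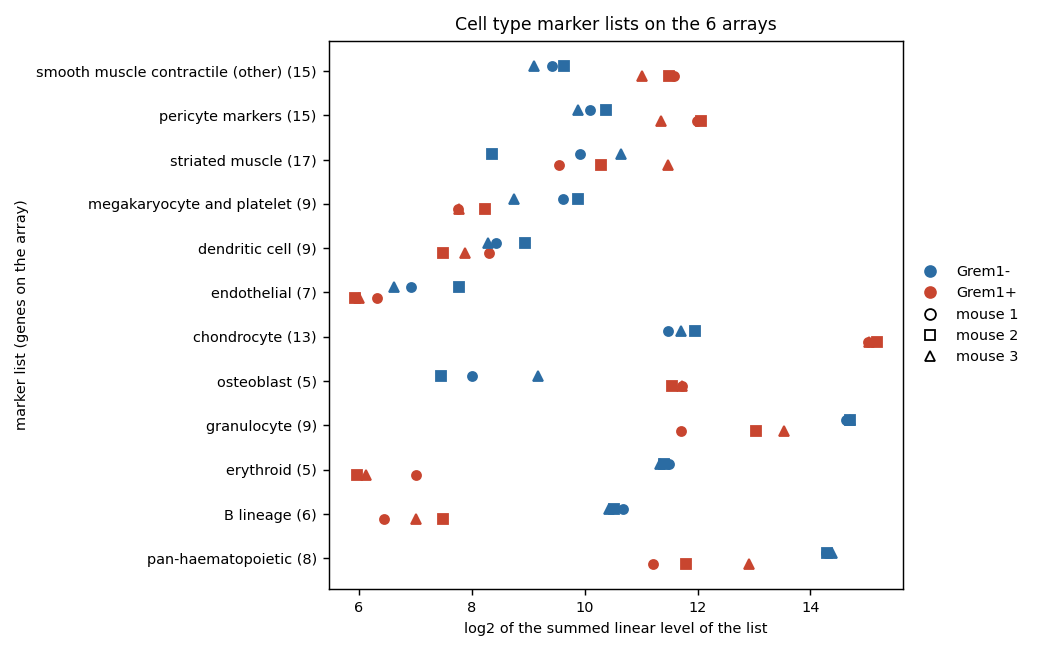
Log2 of the summed linear level of each marker list on each array, with the number of genes on the array in brackets. Blue symbols are Grem1-, red symbols Grem1+ and shape gives the mouse. Chondrocyte sums lie at 15.02 to 15.18 in Grem1+, above all Grem1- arrays, while megakaryocyte and platelet sums lie below them and striated muscle sums overlap.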

How the data were processed

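Each probe set's deposited value is on a log2 scale, as its range of 0.798 to 14.05 shows. The authors used GCRMA, per the submitters' processing notes, a method that removes probe-sequence background, normalizes and summarises. Its version is not given in the sources used here. RNA was amplified with a NuGEN Ovation kit, per the labels' protocols. Scanner files were not used here. The table held 45101 probe sets, of which 34945 had 1 gene symbol in the platform annotation, 932 had several and 9160 are unnamed here, beside 64 controls. Array medians were 3.74 to 3.81, and 44.9 to 45.5% of probe sets were above log2 4.

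Probe sets with 1 symbol and log2 above 4 on at least 3 of 6 arrays, 18157 in all, were fitted with limma 3.58.1 (R 4.3.3, lmFit and eBayes, mouse as a block, two-sided), with Benjamini-Hochberg adjustment and a threshold of 0.05. The pairing comes from the design text. Deviations from group means correlated across probe sets at 0.01, 0.05 and 0.03 for arrays of mice 1, 2 and 3. Between fractions of different mice the correlations were -0.04 to 0.02, so all were near 0. The number of arrays limits the precision. In simulated data of these 18157 probe sets, with 50 changed at each size, 0% of changes of log2 1 were recovered, 18% of log2 2, 96% of log2 4 and 98% of log2 6. In the real data 3235 probe sets passed. With fewer changed, the adjustment was stricter in the simulation, so these shares do not carry over to the real data and may be too low. Where every Grem1- array of a probe set that passed was dim, the fold was computed with dim values set to log2 4. That fold depends on the setting and is no guaranteed minimum.

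Members and lists were chosen with earlier results of these data known. The result of 1 pathway list is not reported here, though its genes are in the totals over lists. From each other pathway list up to 4 genes past the threshold with the largest differences are named. Marker lists are given by their counts and sums. Other names outside the members and sort genes were chosen after their values were seen. Alternatives covered the block, the filter, the normalization, dim values, the limma prior, the choice of probe set and each mouse left out.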

Additional observations from a re-analysis of the deposited data

How the results depend on the processing

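Directions of the 20 tested member probe sets were kept under every alternative that used all 3 mice. With 1 mouse left out, Myl9 1452670_at ranged from -0.11 to 1.40, Tpm2 1449577_x_at from -0.41 to 1.04 and Rgs5 from -1.01 to 0.11. Without the replicate block, 9 member probe sets were higher and 0 lower, 2329 of all tested were higher and 1876 lower, and 15 list genes were higher and 5 lower. With dim probe sets kept in, 3 of 30 member probe sets were higher (Fscn1 1416514_a_at and 1448378_at, and Mylk 1425506_at), as were 1095 of 34945 in all, while 666 were lower, and 8 list genes were higher and 1 lower. More tests enter the adjustment there. With 1 probe set per gene, 4 of 9 member genes were higher (Speg, Fscn1, Mylk and Tpm1), and 1191 genes were higher and 864 lower of 10151. List genes that were lower numbered 6 with the trended, robust prior and 7 with gene means, and the cause was not tested. With the block kept and any mouse left out, 0 probe sets passed in either direction, while 2626 to 2726 higher and 2341 to 2432 lower had an unadjusted p under 0.05 in limma. With no block and any mouse left out, 4 to 5 member probe sets, 1114 to 1176 (1122 without mouse 3) of all and 7 to 9 list genes were higher, and 751 to 796 (761 without mouse 1) of all and 0 to 2 list genes were lower. Member counts were 7 to 10 under the stricter filter, the 3 scalings, the floor at log2 4, the other prior and without shared probe sets, and 6 of 9 genes by gene means.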
